A study of Mus musculus with 10 samples.

Results

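The receptors described here are the odorant receptor (OR) genes numbered Olfr1273 to Olfr1318, most of which lie side by side in a cluster on distal mouse chromosome 2. They were taken as the array probe sets whose annotation gave a single symbol with a number in that range, with or without a pseudogene suffix, which gave 39 probe sets for 37 genes, out of 1026 OR genes with 1034 probe sets, on an array of 35556 probe sets. The rule uses names alone, but the range was chosen with earlier results of these data known, among them those of Olfr1277, Olfr1280 and Olfr1316, so the share of members called is no sample of ORs at large. In the RefSeq gene table, assembly GRCm38.p6, 46 genes carry a number in the range. Of these, 37 had a probe set of their own, Olfr1287 and Olfr1318 appeared only in probe sets shared with other genes, and 7 had none. Another 4 probe sets naming genes of the range together with others were left out. The number range and the place in the genome did not coincide throughout, since Olfr1273-ps and Olfr1274 lie apart from the rest, with 119 protein-coding genes and no other receptor gene between Olfr1274 and Olfr1275. They were counted as members by the rule and described apart.

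The whole main olfactory epithelium (MOE), the sensory sheet of the nose, was profiled in mice of 5 weeks of age on Affymetrix Mouse Gene 1.0 ST arrays, with 4 arrays from H2be-GF mice and 6 from wild-type (WT) mice. H2be-GF is a transgenic line in which the promoter of olfactory marker protein (Omp) drives Flag-H2be, a tagged form of the olfactory histone variant H2BE. The construct was injected into zygotes, inserted in several copies, and the founders were crossed to C57Bl/6, while the strain of the WT mice was not given in the sources used here. Per the study's methods the transgene was on in mature olfactory neurons except in a band near zone 2, the RNA on each array was a pool of several animals, and more animals went into an H2be-GF array than into a WT array. In the labels each array is a replicate of its own, so the p-values below measure the spread between such pools. The series states an equal mixture of males and females, but the labels give no sex for an array. By the level of Xist, the RNA of the inactive X chromosome, the arrays fell into a high and a low set. The high set of 5 held H2be-GF arrays 1 and 2 and WT arrays 1 to 3. The low set of 5 held H2be-GF arrays 3 and 4 and WT arrays 4 to 6. The changes of the called receptors are also given within these sets.

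An OR is a G protein-coupled receptor that detects odorants at the cilia of an olfactory neuron. Each mature neuron expresses 1 OR gene, from 1 allele, so the RNA level of an OR in the whole epithelium moves with the number of neurons that chose it, with how long they live and with how much receptor RNA each holds. Fewer neurons of a type and less RNA per neuron cannot be told apart in these data. OR genes lie in clusters of neighbours, and the names of the MOR scheme group them into subfamilies by protein likeness. In the distal chromosome 2 cluster the measured genes belong to just 2 such subfamilies, MOR245 with 22 probe sets and MOR248 with 15.

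Sequence around the coding start is shown for 5 genes because these carry the comparison: Olfr1275, Olfr1277 and Olfr1280 lay lower in H2be-GF arrays, Olfr1283 is the relative of Olfr1280 with the most similar window among them, and Olfr1316 lay higher. Each window comes from RefSeq, assembly GRCm38.p6, and runs from 250 bases before to 50 bases after the annotated start of the gene, read 5′ to 3′ on the strand of the gene. Capitals mark TAATTA, a homeodomain-type motif.
Olfr1275, chr2:111231742-111232041, minus strand: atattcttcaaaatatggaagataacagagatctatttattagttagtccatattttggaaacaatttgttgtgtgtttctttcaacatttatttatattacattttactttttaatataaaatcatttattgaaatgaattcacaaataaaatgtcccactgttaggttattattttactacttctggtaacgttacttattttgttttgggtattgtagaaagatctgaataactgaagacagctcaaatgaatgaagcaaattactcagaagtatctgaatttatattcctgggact
Olfr1277, chr2:111270316-111270615, minus strand: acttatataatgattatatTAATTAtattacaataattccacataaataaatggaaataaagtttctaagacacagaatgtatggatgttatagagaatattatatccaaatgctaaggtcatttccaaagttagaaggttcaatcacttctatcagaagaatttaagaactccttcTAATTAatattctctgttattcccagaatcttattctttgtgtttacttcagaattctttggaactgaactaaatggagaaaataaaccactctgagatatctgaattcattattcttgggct
Olfr1280, chr2:111315231-111315530, plus strand: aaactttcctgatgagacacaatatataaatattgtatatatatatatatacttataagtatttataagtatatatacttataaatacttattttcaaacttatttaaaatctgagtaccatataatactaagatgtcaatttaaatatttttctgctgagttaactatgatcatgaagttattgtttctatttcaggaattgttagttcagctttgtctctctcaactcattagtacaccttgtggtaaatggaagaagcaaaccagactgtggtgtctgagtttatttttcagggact
Olfr1283, chr2:111368384-111368683, plus strand: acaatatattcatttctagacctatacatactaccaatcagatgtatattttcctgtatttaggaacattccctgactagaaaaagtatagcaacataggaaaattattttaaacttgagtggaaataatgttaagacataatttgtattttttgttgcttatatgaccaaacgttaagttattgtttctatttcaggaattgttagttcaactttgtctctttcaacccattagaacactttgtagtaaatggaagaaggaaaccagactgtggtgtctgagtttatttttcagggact
Olfr1316, chr2:112130766-112131065, minus strand: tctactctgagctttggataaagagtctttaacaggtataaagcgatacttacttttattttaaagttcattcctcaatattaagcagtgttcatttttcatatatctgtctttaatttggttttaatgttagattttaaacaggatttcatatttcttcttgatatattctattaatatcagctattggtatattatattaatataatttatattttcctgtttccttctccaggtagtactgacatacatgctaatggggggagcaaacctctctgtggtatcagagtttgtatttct
In each of these windows the start codon begins at base 251, as it does in 25 of the 30 member windows in the table, so the windows show the bases next to the coding sequence and not a mapped promoter. Windows were found for 29 of the 37 genes. Olfr1281 has none there.

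The windows were rich in A and T: over their first 250 bases the share was 74% for Olfr1277, 76.4% for Olfr1280, 75.2% for Olfr1275 and 74% for Olfr1316. Among the 25 windows that begin the coding sequence at base 251, the 300 pairs shared between 64.2% and 87.8% of their aligned bases, with a median of 74%. The window of Olfr1280 matched that of Olfr1283 at 80.4% of 285 aligned bases, and that of Olfr1277 at 73.8% of 267. The window of Olfr1275, a receptor that was lower, matched that of Olfr1316, the receptor that was higher, at 79.9% of 249 aligned bases. Only windows of members were aligned, so the identity that unrelated windows rich in A and T would reach is not known. Whether likeness of the windows goes with direction of change was not tested.

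Motifs known from OR promoters were counted on both strands. TAATTG, a homeodomain-type motif, occurred in 7 of 30 member windows (23.3%), beside 23.2% of 917 windows of other ORs and 8% of all 32851 windows of the table. TAATTA occurred in 9 member windows (30%), beside 18.2% of other OR windows and 5.29% of all windows. CCCNNGGG, the core of the site bound by Ebf factors, was in 1 member window (3.33%), that of Olfr1299, beside 3.05% of other OR windows and 13.7% of all windows. The longer form CCCNNGGGA, which contains it, was in the same share of member windows, in 2.51% of other OR windows and in 6.56% of all windows. TAATTG or TAATTA was in 4 of 8 windows between Olfr1275 and Olfr1286 (Olfr1276, Olfr1277, Olfr1279 and Olfr1284) and in 11 of 21 between Olfr1288 and Olfr1317. Of the genes printed above only Olfr1277 held one, and it held 2 copies of TAATTA. These counts are descriptions of the letters in the windows.

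Values below are the deposited log2 signals of the probe sets, and a change is the H2be-GF mean minus the WT mean on the log2 scale. All 39 probe sets were measured above the lower limit of the array, with means over the 10 arrays from 6.24 to 10.2. Of these, 29 probe sets for 27 genes had a mean above 7 and entered the test, and 10 had a mean of 7 or below and are described without a call. A receptor is called where limma's two-sided test, with Benjamini-Hochberg adjustment over all 748 tested OR probe sets, gave an adjusted p under 0.05.

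Among the 29 tested probe sets, 5 for 5 genes were lower in H2be-GF arrays (Olfr1275, Olfr1276, Olfr1277, Olfr1280 and Olfr1281) and 2, both of Olfr1316, were higher. Over all tested ORs 9.89% were called, 5.88% lower and 4.01% higher, against 24.1% of these member probe sets, where Olfr1316 counts with both of its probe sets. The background moved with single arrays: without H2be-GF array 2, 6 ORs were higher and 27 lower in place of 30 and 44. The members stayed at 2 higher and 5 lower. As the range was chosen with earlier results known, that steadiness is no support. Every one of the 5 lower receptors lay in the first 7 measured genes at the proximal end of the cluster, and Olfr1316 lay near its distal end. Each of the 7 called probe sets had no overlap between genotypes, and Olfr1283 also had none. Over the tested ORs, 5.48% lay wholly lower and 4.01% wholly higher in H2be-GF arrays. With adjustment over all 23194 probe sets fitted, of which 0.0862% were called, Olfr1276, Olfr1277 and Olfr1280 kept their calls and Olfr1316 did not. Among all 748 tested ORs that adjustment left 6 lower and 0 higher. The median change over the 29 tested members was 0.03, beside 0.02 over all tested ORs, 0.02 over 171 other ORs of chromosome 2 and 0.01 over 548 ORs of other chromosomes. The share called was 10.5% among the other chromosome 2 ORs and 8.94% among ORs of other chromosomes.

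**Figure D1:**
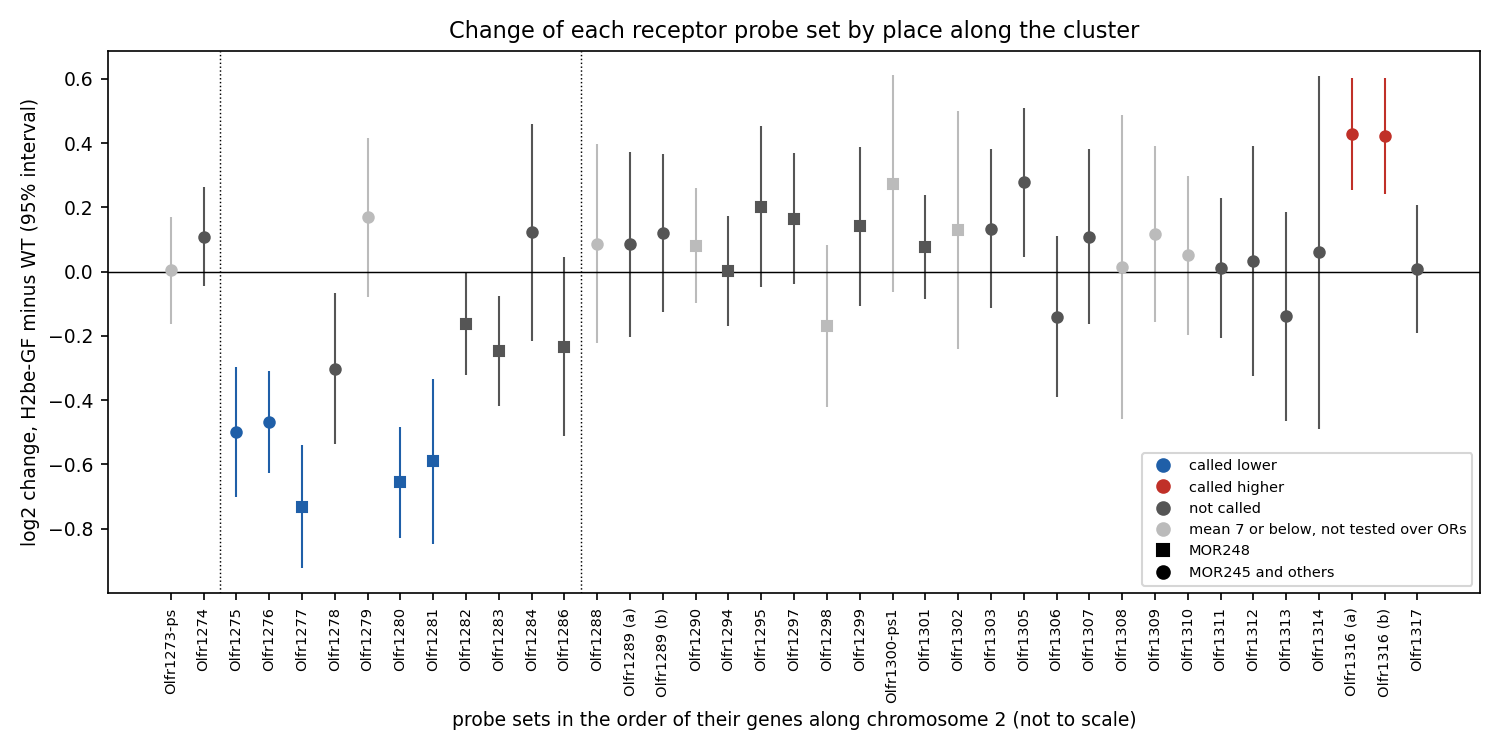
Change of each member probe set (H2be-GF mean minus WT mean, log2, vertical axis, bars: 95% confidence interval) in gene order along chromosome 2 (horizontal axis). Low values gather between Olfr1275 and Olfr1286, where 9 of 11 probe sets lay below 0, and most values after it lie above 0.

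Olfr1277, of subfamily MOR248, stood at 7.84, 7.51, 7.64 and 7.92 on the 4 H2be-GF arrays, and its 6 WT arrays had a lowest value of 8.33, a median of 8.48 and a highest of 8.59. Every H2be-GF array lay below every WT array, and the nearest values of the genotypes were 0.42 apart. The H2be-GF mean was 7.73 ± 0.18 (SD, n = 4) against a WT mean of 8.46 ± 0.10 (SD, n = 6), a change of -0.73 (SE 0.09, 95% confidence interval -0.92 to -0.54), or a signal 1.66-fold lower. The adjusted p by limma was 0.00134 over ORs and 0.00756 over all probe sets. This was the most negative change among the 748 OR probe sets tested.

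Olfr1280, also of MOR248, stood at 8.32, 8.32, 8.47 and 8.62 on the H2be-GF arrays and ran from 8.96 through a median of 9.10 to 9.19 on the WT arrays. No H2be-GF array reached the lowest WT array, with a gap of 0.35 between the genotypes. The change was -0.66 (SE 0.08, 95% confidence interval -0.83 to -0.48), a signal 1.57-fold lower, and limma's adjusted p was 0.00134 over ORs and 0.00756 over all probe sets. It ranked number 2 from the lowest change among ORs. In RefSeq the gene model of Olfr1280 spans Olfr1281, Olfr1282 and Olfr1283, and whether the 4 probe sets share signal through such transcripts was not tested. Their changes were -0.66, -0.59, -0.16 and -0.25, and differences between them were not tested.

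Olfr1281 had 7.25, 7.22, 7.63 and 7.72 on the H2be-GF arrays, against a lowest WT value of 7.79, a median of 8.07 and a highest of 8.18. The genotypes did not overlap, but their nearest arrays were only 0.06 apart. The change was -0.59 (SE 0.12), and limma's adjusted p was 0.0105 over ORs and 0.147 over all probe sets. It is also a MOR248 receptor.

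Olfr1275 and Olfr1276 are of subfamily MOR245 and lie next to Olfr1277. Olfr1275 had 7.39, 7.65, 7.57 and 7.87 on the H2be-GF arrays, and 7.97, 8.12 and 8.26 as the lowest, median and highest of the WT arrays. The genotypes did not overlap, and H2be-GF array 4 came within 0.10 of the lowest WT array. The change was -0.50 (SE 0.09), and limma's adjusted p was 0.00874 over ORs and 0.114 over all probe sets. Olfr1276 had 7.28, 7.14, 7.32 and 7.13 on the H2be-GF arrays, and 7.54, 7.67 and 7.80 as the lowest, median and highest of the WT arrays. Here the gap was wider, at 0.22, and all 4 H2be-GF arrays were close together. The change was -0.47 (SE 0.07), and limma's adjusted p was 0.00466 over ORs and 0.0434 over all probe sets.

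Olfr1316, a MOR245 receptor, was measured by 2 probe sets. The first had 7.80, 7.71, 7.71 and 7.67 on the H2be-GF arrays, and 7.07, 7.29 and 7.52 as the lowest, median and highest of the WT arrays. The second had 7.86, 7.78, 7.73 and 7.75, against a lowest of 7.12, a median of 7.37 and a highest of 7.58. In both, every H2be-GF array lay above every WT array, by 0.16 and 0.15 at the nearest, and the highest WT array was WT array 2. The changes were 0.43 (SE 0.08) and 0.42 (SE 0.08), a signal 1.35-fold and 1.34-fold higher, with limma adjusted p values of 0.00874 and 0.0105 over ORs. Over all probe sets the adjusted p values were 0.114 and 0.141. Both probe sets differed by at most 0.10 on any array, so they may read the same transcript with like probes and count here as 1 gene. Their changes ranked 5 and 6 from the highest among ORs.

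**Figure D2:**
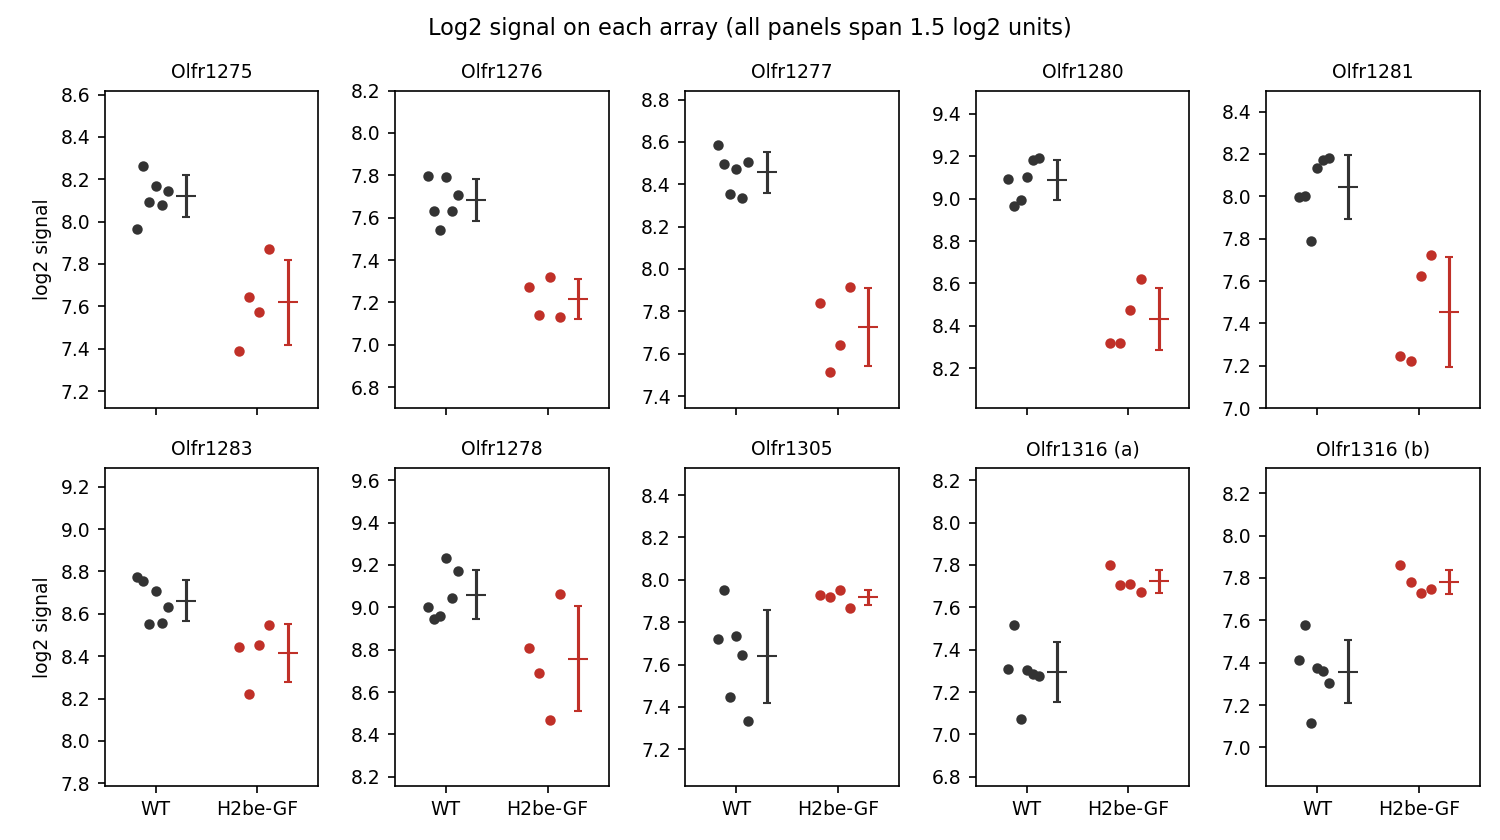
Log2 signal (vertical axis) on each of the 4 H2be-GF and 6 WT arrays for the called receptors and Olfr1283, Olfr1278 and Olfr1305, 1 panel per probe set. The bar by each group of points gives its mean and SD. The genotypes overlap for Olfr1278 and Olfr1305 and are apart elsewhere, with Olfr1277 (7.73 against 8.46) and Olfr1280 (8.43 against 9.09) lower and Olfr1316 higher in H2be-GF arrays.

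The remaining receptors of the proximal end changed less and passed no threshold. Olfr1283 had 8.44, 8.22, 8.45 and 8.55 on the H2be-GF arrays and 8.55, 8.67 and 8.77 as the lowest, median and highest of the WT arrays. The genotypes did not overlap, but their nearest arrays were only 0.008 apart, and the change of -0.25 (SE 0.08) had a limma adjusted p of 0.0684. Olfr1278 changed by -0.30 (SE 0.11) with an adjusted p of 0.112 and Olfr1282 by -0.16 (SE 0.07) with an adjusted p of 0.208, both with overlapping genotypes and an unadjusted p under 0.05. Olfr1286 changed by -0.23 (SE 0.13, limma adjusted p = 0.315). Olfr1279 and Olfr1284 were the exceptions in sign, at 0.17 (SE 0.11, mean of 7 or below) and 0.12 (SE 0.15, limma adjusted p = 0.687), and both overlapped between genotypes.

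In gene order the members thus fell into a proximal stretch from Olfr1275 to Olfr1286, with 11 probe sets, and a distal stretch from Olfr1288 to Olfr1317, with 26. This division was made after the changes were seen and carries no test. In the proximal stretch 9 of 11 probe sets lay below 0, 5 of 10 tested were called lower, 8 had an unadjusted limma p under 0.05 in that direction, and the median change was -0.30. Over the 748 tested ORs, 81 were lower and 91 higher at an unadjusted p under 0.05, and 402 lay above 0. In the distal stretch 23 of 26 lay above 0, the median change was 0.09, and of 18 tested probe sets only those of Olfr1316 were called. Leaving Olfr1316 out, the 24 others ran from -0.17 (Olfr1298) to 0.28 (Olfr1305), with 0 of 16 called by limma and 1 at an unadjusted p under 0.05. Above 0 but without a call stood Olfr1305 at 0.28 (SE 0.11, limma adjusted p = 0.137), Olfr1295 at 0.20 (SE 0.12, 0.338), Olfr1297 at 0.16 (SE 0.09, 0.335) and the dim Olfr1300-ps1 at 0.27 (SE 0.15). Of the nearest measured neighbours of Olfr1316, Olfr1317 changed by 0.01 (SE 0.09, 95% confidence interval -0.19 to 0.21). Olfr1314 changed by 0.06 (SE 0.25), with an interval of -0.49 to 0.61 that includes the change of Olfr1316. Olfr1306, Olfr1313 and Olfr1298 were the members of the stretch below 0, at -0.14, -0.14 and -0.17.

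The subfamilies were spread over both stretches. In the proximal stretch MOR248 probe sets lay below 0 in 6 of 6, with 3 called, and MOR245 probe sets in 3 of 5, with 2 called. In the distal stretch 8 of 9 MOR248 probe sets and 15 of 17 MOR245 probe sets lay above 0. Both subfamilies thus held receptors on each side of 0, and the called receptors of MOR245 included Olfr1275 and Olfr1276, lower, and Olfr1316, higher.

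Seen array by array, the median of the proximal stretch relative to the WT mean was -0.25, -0.47, -0.36 and -0.17 on the H2be-GF arrays and ran from -0.10 to 0.11 on the WT arrays. Since the stretch was marked off by its low changes, these medians describe how its values spread over the arrays and add no support, and H2be-GF array 4 was the nearest to WT. For the distal stretch the same median ran from 0.03 to 0.24 on H2be-GF arrays and from -0.13 to 0.18 on WT arrays. Over all tested ORs it ran from -0.09 to 0.14 on H2be-GF arrays and from -0.10 to 0.11 on WT arrays.

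**Figure D3:**
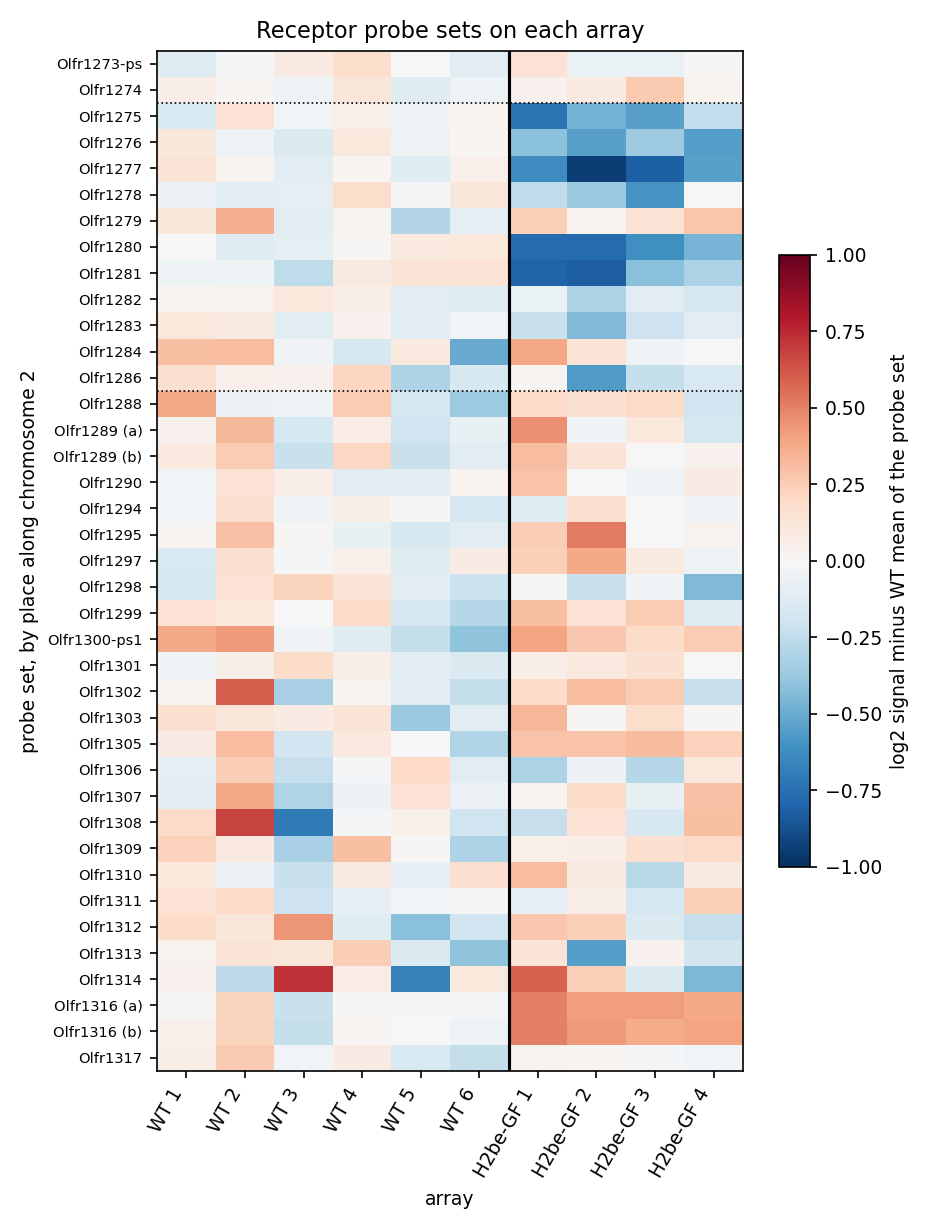
Heat map of each member probe set (rows, in gene order along chromosome 2, with letters for 2 probe sets of a gene) on each array (columns, 6 WT and 4 H2be-GF), coloured by log2 signal minus the WT mean of that probe set. Olfr1275, Olfr1276, Olfr1277, Olfr1280 and Olfr1281 are low on all 4 H2be-GF arrays, and Olfr1316 forms a pair of high rows near the distal end.

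Variation between WT arrays differed among the members. The WT standard deviation ran from 0.09 to 0.46 on the log2 scale with a median of 0.18, beside 0.17 over all tested ORs. The most variable were Olfr1314 (WT standard deviation 0.46) and Olfr1308 (0.46), and their changes of 0.06 and 0.01 were far inside that spread. The median WT standard deviation was 0.10 in the proximal stretch and 0.19 in the distal stretch. On the H2be-GF arrays the median was 0.18 in the proximal and 0.18 in the distal stretch, while limma used a spread shared by both genotypes. For the 2 probe sets of Olfr1289, which differed by up to 0.93 on an array, the changes were 0.09 (SE 0.13) and 0.12 (SE 0.11), neither past the threshold.

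Olfr1273-ps and Olfr1274, the 2 members outside the cluster, gave no call. Olfr1274, with H2be-GF arrays from 9.63 to 9.85 and WT arrays from 9.47 to 9.71, changed by 0.11 (SE 0.07, limma adjusted p = 0.407). Olfr1273-ps had a mean below 7 and changed by 0.00 (SE 0.08).

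Within the sets of arrays high and low in Xist, 31 of 39 probe sets kept the same sign, among them 7 of the 7 called. For the 7 called this was fixed in advance, since their genotypes did not overlap on any array, and it adds no support. Olfr1277 changed by -0.80 in the high set and -0.66 in the low set, Olfr1280 by -0.70 and -0.61, and Olfr1281 by -0.695 and -0.486. Olfr1275 changed by -0.59 and -0.41, and Olfr1276 by -0.45 and -0.49. Olfr1316 changed by 0.46 and 0.41 on its first probe set and by 0.45 and 0.39 on its second. The difference of the change between the sets was tested as an interaction in limma: 0 of the 748 ORs were called, 2.54% had an unadjusted p under 0.05, and the lowest adjusted p was 0.997. Within a set of 2 against 3 arrays 0 of the tested ORs, members included, passed the threshold by limma. At an unadjusted p under 0.05 stood 6 lower and 2 higher member probe sets in the high set. In the low set 5 lower and 3 higher did. The share of all tested ORs at that p within a set is not given here, so these counts have no background.

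**Figure D4:**
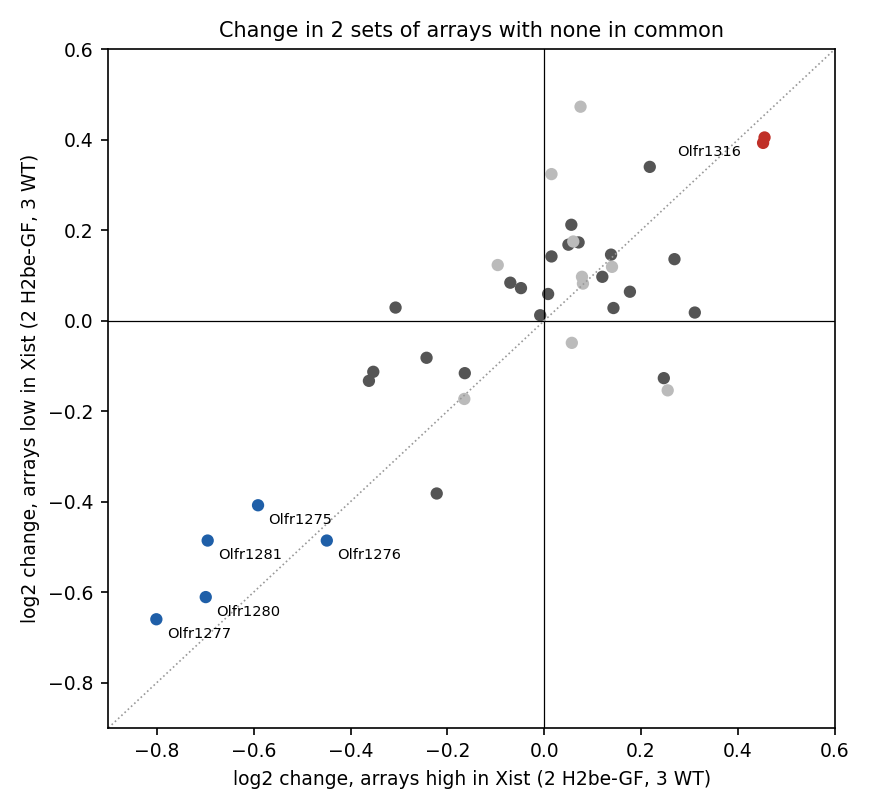
Change of each member probe set (H2be-GF mean minus WT mean, log2) in the arrays high in Xist (horizontal axis, 2 H2be-GF and 3 WT) against the change in those low in Xist (vertical axis, 2 and 3). The called receptors lie near the diagonal, with Olfr1277 at -0.80 and -0.66.

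Hist2h2be, the gene of H2BE, stood at 11.85, 11.92, 11.85 and 11.76 on the H2be-GF arrays and from 12.00 to 12.13 on the WT arrays, a change of -0.23 (SE 0.06, limma adjusted p over all probe sets = 0.297). The transgene holds only the coding part of H2be within Omp sequence, and which part of the transcript the probe set reads was not given in the sources used here, so this level does not check the labels. Omp changed by -0.10 (SE 0.05, limma adjusted p = 0.659). Of 13 lists of marker genes and receptor expression factors, with 101 genes measured, 1 gene was called higher and 0 lower over all probe sets: Lhx2, a homeodomain factor required for OR expression, at 0.37 (SE 0.06, limma adjusted p = 0.0425). Of the markers of mature olfactory neurons all 18 were measured at high levels, 0 were called, 3 were lower at an unadjusted limma p under 0.05, the median change was -0.09, and their mean log2 signal ran from 11.52 to 11.56 on H2be-GF arrays and from 11.57 to 11.65 on WT arrays. Of 6 markers of respiratory ciliated cells, a cell type of the neighbouring epithelium, 0 were called, 4 were lower at an unadjusted limma p under 0.05, and the mean log2 signal ran from 9.52 to 9.64 on H2be-GF arrays and from 9.69 to 9.81 on WT arrays. Of 10 genes listed for zones of the epithelium, 0 were called and 2 were higher at an unadjusted limma p under 0.05. These were Ncam2 at 0.26 and Nrp1 at 0.30, and the median change of the list was 0.055. Nqo1, Acsm4, Nfix and Slit1 of the list lay below 0, at -0.14, -0.12, -0.06 and -0.02, none under that p. In the 9 other lists 0 genes were called, and the median change ran from -0.27 for 2 red cell genes to 0.05 for 6 immune cell genes. No marker list was at the lower limit on any array. The part of these differences in the receptor changes was not tested. The share of all fitted probe sets with an unadjusted limma p under 0.05 is not given here, so the marker counts at that p have no background.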

How the data were processed

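Total RNA of whole MOE was measured on arrays of the type Affymetrix Mouse Gene 1.0 ST. After an outlier check, the authors used Affymetrix Expression Console to normalize the scans by sketch-quantile and to summarise probe sets by IterPLIER, and deposited log2 values. For these tools the version, and for the annotation the genome build, is not given in the sources used here. Quantile normalization hides a change shared by most genes, and the number of arrays limits the precision. Array medians ran from 7.74 to 7.91, and arrays correlated at 0.969 to 0.988. The members and the gene lists were chosen with earlier results of these data known.

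Gene names came from the annotation of the platform, where 21789 probe sets had 1 symbol, 1621 several and 12146 none. Differences were fitted without a covariate by lmFit and eBayes of limma 3.58.1 (R 4.3.3) on 23194 probe sets with a symbol and a mean above 5, and adjusted over the 748 OR probe sets whose mean exceeded 7, after the study's methods. The step was tested on simulated data. Named with full values were Olfr1277, Olfr1280, Olfr1281 and Olfr1316, every member called or without overlap, and of the rest the 3 each way with the smallest p. Windows were aligned globally with Biopython 1.88, and identity counts aligned columns without gaps. Alternatives covered normalization, centring, an added constant of 16, variance models, array weights, a replicate block, Xist set, the range adjusted over, an exact permutation test and leaving out each array. The marker lists also covered immature neurons, basal, sustentacular, gland, microvillous, immune, red and glial cells. A planned comparison of receptor proteins was not run, as protein sequences were not used here.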

Additional observations from a re-analysis of the deposited data

How the results depend on the processing

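The main counts, in probe sets, were 5 lower and 2 higher, the latter both of the 1 gene Olfr1316. Each count stayed within 1.5 times of these under 19 of 25 alternatives, and leaving out each array in turn gave 5 to 6 lower and 2 to 3 higher, with Olfr1278 added without H2be-GF array 4 and Olfr1305 added without WT array 2. With adjustment over all probe sets with a mean above 5, or above 7, 3 were lower (Olfr1276, Olfr1277 and Olfr1280) and 0 higher. Over all tested ORs 6 were lower with a mean above 5, 7 with a mean above 7, and 0 higher in either. At an unadjusted limma p under 0.05 there were 3 higher members, beside 91 of the 748 tested ORs. In the arrays high in Xist 0 were lower and 0 higher by limma, as in the arrays low in Xist, where fewer arrays entered each fit. The same held over all tested ORs. The exact permutation test also called 0 lower and 0 higher, among members as among all tested ORs. Its smallest possible p over 210 splits is 0.00476, which came to 0.0712 after adjustment.

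Replicate numbers did not pair the arrays: same-numbered arrays deviated together with correlations of 0.53, 0.219, -0.423 and 0.261, and 1 of 4 correlated best with its own number. With the number as a replicate block, limma called 2 lower (Olfr1277 and Olfr1280) and 0 higher, with 9 lower and 2 higher at an unadjusted p under 0.05. Over all tested ORs the block left 6 lower and 0 higher, in place of 44 and 30. The share of ORs at that unadjusted p under the block is not given here. WT arrays 5 and 6 have no H2be-GF array of the same number. The change under the block thus rests on the arrays numbered 1 to 4. The median change of the tested members ran from -0.04 to 0.07 over 22 alternatives, in each of them less than 0.08 from its main value. That 0.08 is the pooled standard deviation, within genotypes, of the arrays' medians. It is a spread between arrays and no standard error of the change. The median change fell below 0 with the block, with array weights and without H2be-GF array 1, so it has no settled sign. None of 349 values of the 14 named probe sets changed sign, but much of this was fixed in advance. Most of these probe sets were named for their calls, lack of overlap or small p in the same arrays. Where the genotypes did not overlap, leaving out arrays could not turn the sign. Alternatives in the range adjusted over, and the permutation test, kept the same change. Over all tested ORs, leaving out 1 array gave 6 (without H2be-GF array 2) to 44 (without WT array 2) higher beside 30, and 27 (without H2be-GF array 2) to 43 lower beside 44. The number of ORs higher was also 9, 17, 13, 15 and 13 without H2be-GF arrays 1 and 3 and WT arrays 3, 5 and 6. The counts of members moved less. The range was chosen with earlier results known, and the called members had changes near the extremes among ORs, so this steadiness is no support for them.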

Other observations

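The genes beside the cluster were measured too. Of the 6 nearest protein-coding neighbours with a probe set, 3 on each side, 0 were called by limma over all probe sets and 1 had an unadjusted p under 0.05. Ano3 changed by 0.08, Muc15 by 0.11 and A26c3 by -0.07 on the proximal side, and Nutm1 by -0.02 and Nop10 by 0.10 on the distal side. Lpcat4, also on the distal side and the gene with that p, changed by -0.16 (SE 0.06, limma adjusted p = 0.457). It went from 10.58 ± 0.06 (SD, n = 6) in WT to 10.42 ± 0.03 (SD, n = 4) in H2be-GF arrays, and its genotypes did not overlap. The shares of all fitted probe sets at that unadjusted p, or without overlap, are not given here.

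Of each marker list the 2 genes with the smallest p were S100a5 and Cidea for mature neurons, Hdac2 and Crmp1 for immature neurons, Lhx2 and Ebf1 for receptor expression factors, Ncam2 and Nrp1 for zones, Neurog1 and Mki67 for globose basal cells, and Krt15 and Icam1 for horizontal basal cells. They were Hes1 and Ermn for sustentacular cells, Bpifb9b and Lyz2 for gland cells, Pou2f3 and Coch for microvillous cells, Tekt1 and Foxj1 for ciliated cells, Ptprc and Csf1r for immune cells, Alas2 and Slc4a1 for red cells, and Npy and Fabp7 for ensheathing glia. Of these genes only Lhx2 passed limma's threshold over all probe sets.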
